A study of Sus scrofa with 23 samples.

Results

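The comparison described here is psilocybin against saline in the animals of batch 2, the second of the batches given in the labels. Its libraries were chosen by the animal number in the labels: those above 400 were taken, which gave 12 of the 23 libraries of the series, 6 from psilocybin animals and 6 from saline animals. Every library came from the prefrontal cortex of 1 female adolescent pig of 20 kg. The psilocybin animals had received a single intravenous dose of 0.08 mg/kg while awake, and the control animals saline in the same way. Psilocybin animals are called P1 to P6 and saline animals S1 to S6, in the order of their numbers in the labels. Animals P1, P2 and P3 were killed 1 day after psilocybin, and P4, P5 and P6 were killed 1 week after it. Saline animals S1, S2 and S3 were killed at 1 day, and S4, S5 and S6 at 1 week. Pentobarbital was given to all 12 animals at the end, and whole brains were snap frozen before poly-A selected RNA was sequenced. The labels do not say which step of the work a batch number marks, and they name no litter.

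Psilocybin is converted in the body to psilocin, which activates serotonin receptors, among them 5-HT2A, the product of HTR2A. In the cortex this receptor sits mainly on excitatory pyramidal neurons and couples to Gq proteins and phospholipase C. Activity in those neurons switches on immediate early genes such as FOS, ARC and EGR1 within minutes to hours, and slower programmes include growth factors such as BDNF and proteins of the synapse. The animals were sampled a day or a week after the drug, so these levels describe what was present in the tissue at those times.

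Total counts per library ranged from 9504421 to 18654626 in psilocybin animals and from 10570456 to 17206665 in saline animals. Levels are given in CPM, which are counts scaled to a common library total after correction for library composition, and differences as log2 fold changes of psilocybin over saline with their standard error (SE). The excitatory neuron markers SLC17A7 (lowest 965 CPM), NRGN and TBR1 were present in all 12 libraries. Of a list of striatal and thalamic markers, several of which cortex also expresses, 11 members were tested, and their summed level ran from 154.7 to 206 CPM after psilocybin and from 157.2 to 206.9 CPM after saline. PENK (28.4 to 59.8 CPM), PPP1R1B (27.9 to 46.8 CPM) and DRD1 (13.3 to 29.2 CPM) were present in all 12 libraries, while DRD2 reached at most 0.594 CPM and LHX9 at most 0.0786 CPM. Of the red cell markers, HBB ranged from 11 to 75.6 CPM while SLC4A1 stayed at or below 0.114 CPM. Libraries S3 (saline, 1 day) and P6 (psilocybin, 1 week) stood apart from the other 10 on the first principal component, which held 25.6% of the variance. Pooled list medians and log2 fold changes printed here that changed sign, or moved by over 1.5 times, without both are given both ways.

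No gene passed the test in batch 2. Of 15059 genes tested with times pooled and time as a covariate, 0 had an adjusted p under 0.05 by edgeR's quasi-likelihood test (percent called, 0), and 230 had an unadjusted p under 0.05, which is 1.53% of the genes tested. Of these 230 genes, 125 were higher (0.83%) and 105 lower (0.697%) after psilocybin. Over all genes tested the median log2 fold change was -0.008, and 46.5% of the genes were higher. DESeq2 also called 0 genes here and in each comparison of all animals below, as did limma-voom, which was not run in batch 1. The smallest adjusted p was 0.9998. The median half-width of the 95% confidence interval of a log2 fold change was 0.274. It was 0.797 for the 627 genes with a mean under 1 CPM and 0.202 for the 2077 genes with a mean over 100 CPM. The 24 leading genes, of which those named next are members, have the smallest p-values among genes with a symbol, 12 in each direction, so they were selected on this contrast, and their fold changes are a description of its extremes.

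RAB19, a small GTPase of vesicle transport, had the smallest p. It ranged in psilocybin animals from 3.18 CPM over a median of 3.71 to 4.93, and in saline animals from 1.84 over 2.25 to 2.61 CPM. The groups did not overlap, and every psilocybin animal lay above every saline animal at both times. The log2 fold change was 0.77 ± 0.16 (SE), with an unadjusted edgeR p of 0.00035 and an adjusted p of 0.9998. RAB19 (susScr11 chromosome 18, 9363575 to 9384895) overlaps SLC37A3, and a read that overlapped both was given to each in fractions.

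ZNF786, which encodes a zinc finger protein, ranged from 14.4 over a median of 15.7 to 21.3 CPM after psilocybin. In saline animals it ranged from 9.51 over 10.9 to 13.8 CPM. The highest value was that of psilocybin animal P1, and the groups did not overlap even apart from it. The log2 fold change of ZNF786 (chromosome 9, 109221772 to 109250628) was 0.55 ± 0.13 (SE), being 0.76 ± 0.17 at 1 day and 0.35 ± 0.17 at 1 week.

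The higher set included 3 transcription factors and a phosphatase. MSX2, a homeobox transcription factor, ranged from 3.29 over a median of 3.59 to 4.39 CPM in psilocybin animals and from 1.70 over 2.71 to 3.04 CPM in saline animals, a log2 fold change of 0.56 ± 0.17. FOXO1, a transcription factor held out of the nucleus by insulin and AKT signalling, ranged from 12.9 over 13.4 to 16.5 CPM after psilocybin. It ranged from 8.78 over 11.1 to 12.8 CPM after saline, with a log2 fold change of 0.33 ± 0.11. PHLPP2, a phosphatase that removes an activating phosphate from AKT, ranged from 12.4 over 14.2 to 15.2 CPM against 7.32 over 11.3 to 12.1 CPM, a log2 fold change of 0.40 ± 0.13. Neither MSX2, FOXO1 nor PHLPP2 overlapped between groups. NPAS3, a basic helix-loop-helix transcription factor of neural development, had a log2 fold change of 0.37 ± 0.13 and its groups overlapped.

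Among enzymes and other products in the higher set, ASS1, the urea cycle enzyme that joins citrulline and aspartate, ranged from 6.67 over 7.40 to 9.07 CPM after psilocybin. In saline animals ASS1 ranged from 4.87 over 5.70 to 6.92 CPM. Only psilocybin animal P1 lay below the highest saline value, and the log2 fold change was 0.42 ± 0.13. C1QTNF1, a secreted protein related to complement C1q, stood at 0.29 ± 0.09 on the log2 scale, and BCL2L13, a mitochondrial outer membrane protein of the BCL2 family, at 0.24 ± 0.08. PCDHGB1, a clustered protocadherin, stood at 0.51 ± 0.15, but it shares its locus with PCDHGA4 and the counts of that cluster are uncertain. SDR42E2 and IFTAP, the other members of the higher set, had log2 fold changes of 0.69 ± 0.24 and 0.43 ± 0.15.

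In the lower set, SOD3, the secreted superoxide dismutase of the extracellular matrix, ranged from 2.70 over a median of 3.77 to 4.42 CPM after psilocybin. In saline animals SOD3 ranged from 4.24 over 6.04 to 8.74 CPM, and saline animals S1, S4 and S3 were the highest. The log2 fold change was -0.72 ± 0.20, and the groups overlapped at one edge. CDCA8, a subunit of the chromosomal passenger complex in mitosis, ranged from 1.97 over 2.21 to 2.88 CPM against 2.76 over 3.26 to 3.73 CPM, a log2 fold change of -0.50 ± 0.15. CA3, a carbonic anhydrase best known from muscle, had a log2 fold change of -0.75 ± 0.24. DNAJC2, a ribosome-associated chaperone, was the most abundant gene of the lower set in CPM, from 20.8 over 22.1 to 24.5 after psilocybin and from 23 over 26.0 to 29.0 after saline, a log2 fold change of -0.23 ± 0.08.

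Also in the lower set, TBXA2R, the receptor of the platelet and vessel signal thromboxane A2, ranged from 1.59 over 1.88 to 2.40 CPM after psilocybin and from 2.24 over 2.91 to 3.09 CPM after saline, a log2 fold change of -0.50 ± 0.16. SELP, the adhesion molecule P-selectin of endothelium and platelets, ranged from 0.443 over 0.934 to 1.73 CPM against 0.805 over 2.30 to 2.41 CPM, a log2 fold change of -0.98 ± 0.35. IGFBP2, a binding protein of insulin-like growth factors that is also made by leptomeningeal cells, had a log2 fold change of -0.41 ± 0.14. GRHL3, TRIM16, AKR1E2 and CCDC88B were also in the set, with log2 fold changes between -0.94 and -0.36. The levels of GRHL3, SELP and CA3 rest on few reads, with means near 1 to 2 CPM or below.

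All 24 leading genes had the same sign at 1 day and at 1 week, and all 24 kept it without animals S3 and P6. Since both times entered the fit that chose them, this adds no independent support.

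**Figure D1:**
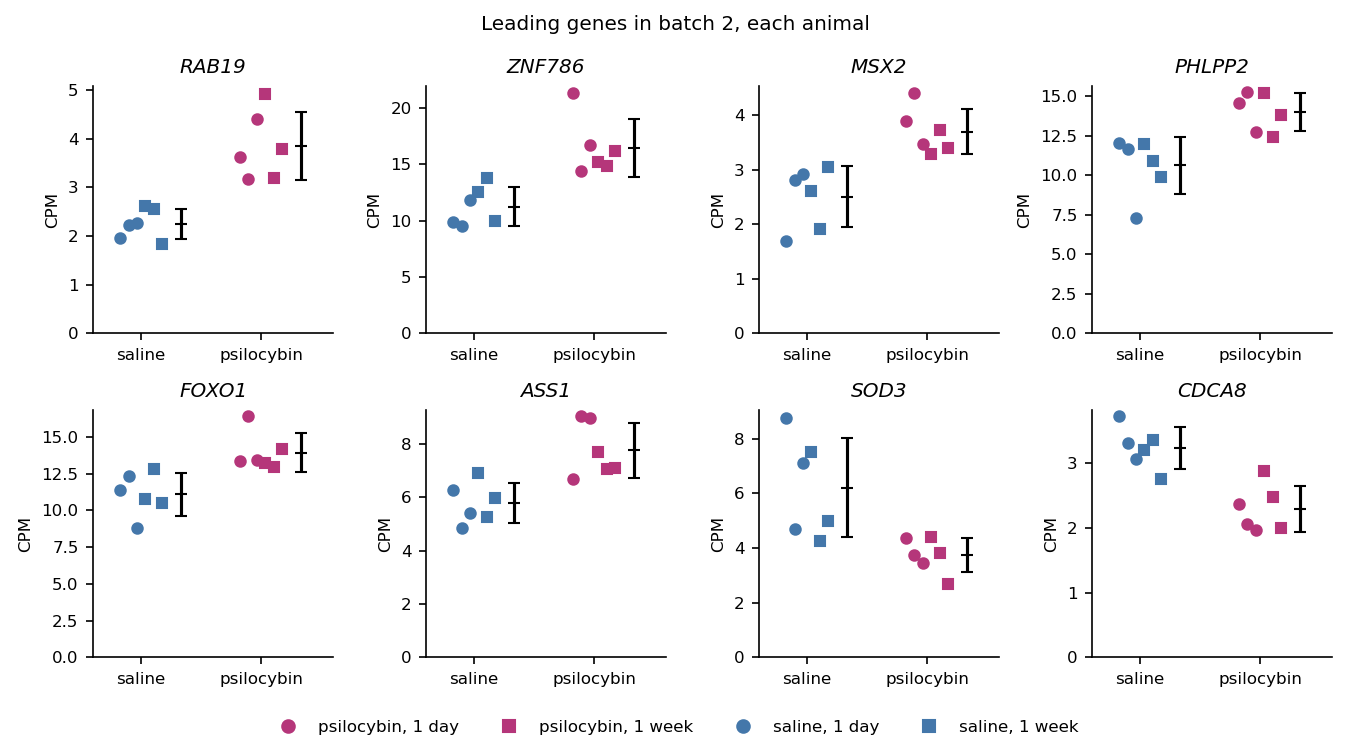
CPM of 8 leading genes in each of the 12 animals of batch 2, with circles for 1 day, squares for 1 week and the mean ± SD beside each treatment (6 animals each). RAB19, ZNF786, MSX2, PHLPP2 and FOXO1 show no overlap between treatments, while ASS1, SOD3 and CDCA8 overlap at the edge.

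Over all 15059 genes, 8 had groups of 6 that did not overlap in CPM (0.0531%), 7 of them higher and 1 lower after psilocybin. They comprise RAB19, ZNF786, MSX2, PHLPP2 and FOXO1, which are described above. GEMIN4, a component of the complex that assembles spliceosomal particles, lay between 43.8 and 48.1 CPM after psilocybin and between 40.6 and 43.5 CPM after saline. Its log2 fold change was 0.12, so its groups separated at a small difference. ENSSSCG00000037643 (higher) and ENSSSCG00000033891 (lower) have no symbol.

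No receptor or other gene tied to the known action of the drug passed the test. Of 14 genes of interest, 13 were tested and none had an unadjusted p under 0.05. HTR2A ranged from 11.1 over a median of 15 to 24.3 CPM after psilocybin and from 11.5 over 19.2 to 23.5 CPM after saline. The groups overlapped across nearly their whole range, and the log2 fold change was -0.16 with a 95% interval from -0.60 to 0.28. HTR2C, another Gq-coupled serotonin receptor, had a log2 fold change of -0.10 ± 0.11 (-0.15 without animals S3 and P6), with saline animal S2 alone at 17.0 CPM and the others of its group between 10.5 and 12.3 CPM. NTRK2, the receptor of BDNF, lay within 642 and 740 CPM after psilocybin and 583 and 813 CPM after saline. Its log2 fold change of -0.01 had a 95% interval from -0.19 to 0.17, and it was -0.07 without animals S3 and P6. BDNF itself stood at 0.05 with an interval from -0.32 to 0.41 (-0.08 without animals S3 and P6), and its groups spanned 10.9 to 17.3 CPM and 9 to 18.9 CPM. SV2A, the synaptic vesicle protein used as a marker of synaptic density in imaging, had a log2 fold change of -0.04 ± 0.14, and -0.17 without animals S3 and P6. It ran from 348 to 525 CPM after psilocybin and from 275 to 513 CPM after saline, and it overlaps BOLA1.

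The differences of the immediate early genes ARC and FOS depended on saline animal S5. ARC ranged from 146 over 207 to 285 CPM after psilocybin and from 108 over 231 to 564 CPM after saline, where saline animal S5 was the highest and saline animal S6 the lowest. Its log2 fold change of -0.24 ± 0.31 became 0.14 without animal S5. FOS was likewise highest in animal S5, at 46.9 CPM, against 18.3 to 24.8 CPM in the other saline animals and 17.5 to 35.6 CPM after psilocybin. The FOS log2 fold change was -0.04 ± 0.22 and became 0.18 without that animal. EGR1 had -0.08 ± 0.20, NR4A1 0.05 ± 0.23 and DUSP1 -0.07 ± 0.14 as log2 fold changes, and -0.16, -0.04 and -0.14 without animals S3 and P6, where FOS had -0.12. EGR1 overlaps ETF1. Of 37 tested immediate early genes, 23 were lower and 14 higher, with a median log2 fold change of -0.068 and 1 at an unadjusted p under 0.05. Without animals S3 and P6, 32 of the 37 were lower, at a median of -0.116. Without animal S5 the median of the list was 0.077, so its sign also depended on that animal. The 1 gene among all 12 animals was GADD45B, a stress and activity induced gene, at 11 ± 1.72 CPM (SD) after psilocybin and 13.5 ± 2.37 CPM after saline.

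FKBP5, a chaperone induced by glucocorticoids, had a log2 fold change of -0.06 ± 0.13 (-0.01 without animals S3 and P6). LXN, a carboxypeptidase inhibitor, had -0.20 ± 0.25 (-0.04 without animals S3 and P6), with saline animal S3 at 30.5 CPM and psilocybin animal P1 at 22.1 CPM above the rest of their groups, and it overlaps GFM1. CXCL10, an interferon-induced chemokine, had the smallest p among these 13 genes. It ranged from 0.683 over 1.96 to 3.54 CPM after psilocybin and from 1.44 over 2.84 to 5.27 CPM after saline, a log2 fold change of -0.71 ± 0.36 with an unadjusted edgeR p of 0.0722 and an adjusted p of 0.9998. Animal S3 held the highest saline value, and the log2 fold change was -0.36 without animals S3 and P6. CXCL10 overlaps ART3.

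The 8 tested genes of the serotonin system were divided evenly, 4 higher and 4 lower, at a median log2 fold change of -0.002. Without animals S3 and P6, 8 of 9 tested were lower, at a median of -0.115. Of 30 genes of the Gq pathway and of receptor desensitisation, 20 were higher and 10 lower, at a median of 0.026. The calcium release channels ITPR1 (0.23 ± 0.15, and 0.11 without animals S3 and P6) and ITPR2 (0.26 ± 0.17) had the largest log2 fold changes of those named, and the Gq family subunit GNA14 stood at -0.30 ± 0.17. Of 33 genes of neurotrophin, mTOR and plasticity signalling, 20 were higher, at a median of 0.024, against 13 of 33 at a median of -0.011 without animals S3 and P6. RPTOR, the scaffold of mTOR complex 1, ran from 85.9 to 99.5 CPM after psilocybin and from 74.5 to 93.5 CPM after saline (0.14 ± 0.07 on the log2 scale), and CRTC1, a coactivator of CREB, had 0.20 ± 0.11. Among all 12 animals no member of these 3 lists had an unadjusted p under 0.05.

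Synapse genes showed opposite signs within the same list. Of 40 postsynaptic glutamate receptors and scaffolds, 24 were higher and 16 lower (median log2 fold change 0.034). Without animals S3 and P6 the split was 17 higher and 23 lower (median -0.021). SHANK2, a postsynaptic scaffold, ranged from 101 over 130 to 156 CPM after psilocybin and from 84.4 over 108 to 132 CPM after saline, a log2 fold change of 0.27 ± 0.13. GRIN2B, an NMDA receptor subunit, ranged from 11.7 over 13.5 to 17.9 CPM against 9.95 over 17.8 to 21.7 CPM, and stood at -0.29 ± 0.14. CACNG2, an AMPA receptor auxiliary subunit, had -0.17 ± 0.08. Saline animal S3 was the lowest saline animal for both SHANK2 and GRIN2B. Of 34 presynaptic genes, 16 were higher and 18 lower (median -0.002, and -0.032 with 23 lower without animals S3 and P6), among them BSN, an active zone scaffold (0.42 ± 0.22), and SLC17A6, a vesicular glutamate transporter (-0.20 ± 0.11, and -0.31 without animals S3 and P6). Of 15 genes of GABA-A receptors and inhibitory synapses, 6 were higher (median -0.007), and 2 of 15 (median -0.084) without animals S3 and P6. Of 41 potassium channel genes, 29 were higher, at a median of 0.046. KCNH1, a voltage-gated channel of that list, ranged from 9.20 over 11.1 to 14.4 CPM after psilocybin and from 4.61 over 7.87 to 11.8 CPM after saline, with a log2 fold change of 0.53 ± 0.22. Of 18 neuropeptide genes, 12 were lower (median -0.068, and -0.189 without animals S3 and P6), with NPY, the peptide of a class of interneurons, between 38.8 and 72.7 CPM against 54.0 and 64.5 CPM (-0.21 ± 0.12).

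The medians of the neuron marker lists lay near 0, and their signs were not stable. Of 21 alternative fits, the excitatory median changed sign in 4 and the inhibitory median in 3. The excitatory median was lowest, at -0.050, without psilocybin animal P1. Of 20 excitatory and cortical layer markers, 11 were higher (median log2 fold change 0.009), and of 21 inhibitory neuron markers 13 were higher (median 0.026). Without libraries S3 and P6, 9 of 20 excitatory markers (median -0.035) and 4 of 21 inhibitory markers (median -0.058) were higher.

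Astrocyte markers shared one sign with times pooled: 15 of 15 tested genes were higher after psilocybin, while 46.5% of all genes were higher. Their median log2 fold change was 0.111 (0.143 without animals S3 and P6). At 1 day 14 of the 15 were higher, and at 1 week 10 of the 15. Mean levels after psilocybin and saline were nearly equal for GFAP (2372 and 2367 CPM) and ALDOC (1388 and 1386 CPM). In this bulk tissue, a change in the number of cells of a type and a change in RNA per cell cannot be told apart. None of the 15 passed the test, and 1 had an unadjusted p under 0.05, SLC1A2, the main glutamate uptake carrier of astrocytes. It ranged from 347 over 472 to 732 CPM after psilocybin and from 218 over 348 to 492 CPM after saline. Saline animals S6 and S3 were the lowest and psilocybin animals P2 and P4 the highest, with overlap between the groups and a log2 fold change of 0.54 ± 0.23 (unadjusted edgeR p of 0.0347, adjusted p of 0.9998). AQP4, the water channel of astrocyte end-feet, ran from 565 to 747 CPM against 559 to 716 CPM (0.14 ± 0.09), and MLC1, a membrane protein of the same end-feet, from 324 to 391 CPM against 263 to 361 CPM (0.17 ± 0.09). The list score, the mean over members of each library's log2 CPM relative to the gene's mean over the 12 libraries, ran from -0.14 to 0.20 after psilocybin and from -0.21 to 0.06 after saline. The summed level of the list overlapped as well, from 9906 to 10998 CPM after psilocybin and 8974 to 10754 CPM after saline. Psilocybin animal P1 lay at the low end with saline animals S2 and S6.

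All 17 tested genes of mature oligodendrocytes and myelin had the opposite sign, at a median log2 fold change of -0.275. The saline libraries varied widely among themselves. The list score was 0.73 in saline animal S3, 0.52 in saline animal S6 and -0.93 in saline animal S2, while the 6 psilocybin animals lay between -0.23 and 0.05. The summed level ran from 4097 to 24809 CPM in saline animals and from 7081 to 10222 CPM in psilocybin animals. GJB1, a gap junction protein of myelin, ranged from 6.2 over 7.14 to 8.97 CPM after psilocybin, and from 3.38 over 9.5 to 18.1 CPM after saline. Its log2 fold change was -0.46 ± 0.31, and -0.01 without animals S3 and P6. Without these 2 libraries the median of the list was -0.035 and 12 of the 17 genes were lower. Of 12 oligodendrocyte precursor markers, 9 were higher (median 0.040), and 6 of 12 (median 0.004) without animals S3 and P6. PDGFRA, the receptor that defines these precursors, ranged from 15.8 over 18.7 to 24.1 CPM against 8.27 over 14.2 to 19.0 CPM. PDGFRA was lowest in saline animal S3, and its log2 fold change was 0.42 ± 0.17.

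**Figure D2:**
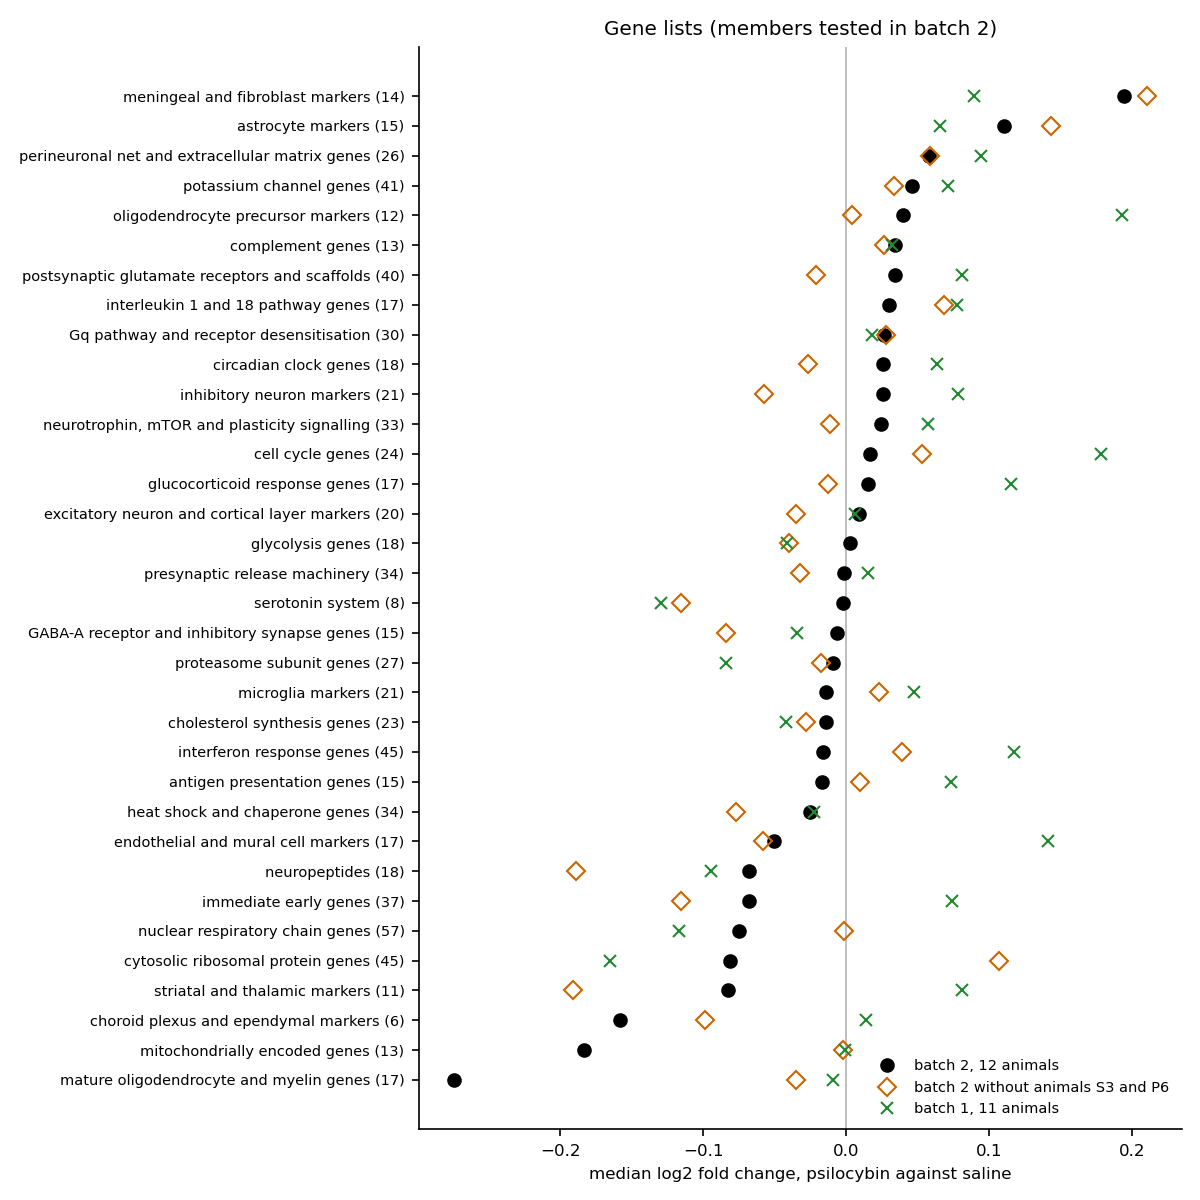
Median log2 fold change of psilocybin against saline over the tested members of 34 gene lists with at least 5 tested members (number in brackets), in the 12 animals of batch 2, in batch 2 without animals S3 and P6, and in the 11 animals of batch 1. Myelin, mitochondrially encoded and ribosomal protein lists sit below 0 in all 12 animals and move to about 0 or above it without the 2 libraries, whereas astrocyte and meningeal lists stay above 0 in all 3 sets.

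The ribosomal and nuclear respiratory chain lists depended on libraries S3 and P6, and leaving out each moved their medians in opposite directions. Without animal S3 alone the ribosomal median was 0.233 and the respiratory chain median 0.116. Without animal P6 alone they were -0.207 and -0.188. Without both, the ribosomal median changed sign and the respiratory chain median shrank. Of 45 cytosolic ribosomal protein genes, 42 were lower after psilocybin at a median log2 fold change of -0.081, but the median was -0.438 at 1 day and 0.275 at 1 week. The list score was 1.04 in saline animal S3 and 0.49 in psilocybin animal P6, and between -0.40 and 0.10 in the other 10 animals. RPL14, a large subunit protein, measured 541 CPM in animal S3 and 329 CPM in animal P6, against 171 to 220 CPM in the others. Without these 2 libraries 43 of 45 ribosomal protein genes were higher, at a median of 0.107. Near-identical copies make counts of single ribosomal protein genes uncertain. Of the nuclear encoded genes of the respiratory chain, 49 of 57 were lower at a median of -0.075. Without the 2 libraries 29 of 57 were lower, at a median of -0.001. Their score was 0.70 in animal S3 and 0.40 in animal P6, and no higher than -0.03 in the others. NDUFB4, a subunit of complex I, measured 73.1 and 57.7 CPM in those animals and 35.8 to 43.4 CPM in the rest.

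All 13 mitochondrially encoded genes were lower, at a median of -0.183 (-0.002 without animals S3 and P6). ND4, a complex I subunit encoded by the mitochondrial genome, spanned 5341 to 9451 CPM after psilocybin and 6105 to 12040 CPM after saline, highest in animal S3, and it overlaps ND4L. Mitochondrially encoded genes took 10.5% ± 2.07 (SD, n = 6) of all counts after psilocybin and 11.5% ± 2.25 (SD, n = 6) after saline. The difference of -0.930 percentage points had a two-sided exact permutation p of 0.475 over 400 arrangements within times. The difference was -0.234 points without saline animal S3 and -0.242 points without psilocybin animal P1.

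**Figure D3:**
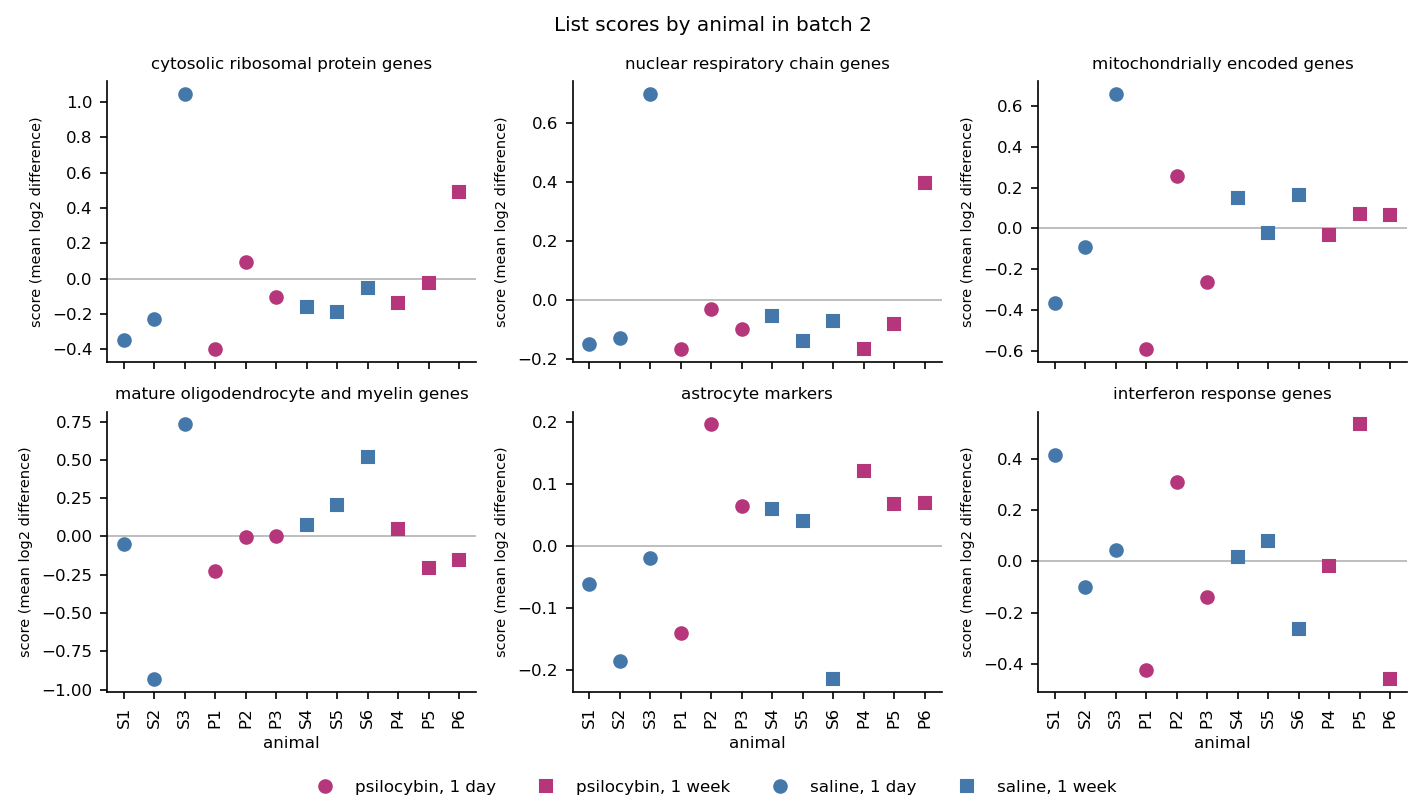
Score of 6 gene lists in each animal of batch 2, ordered by time and treatment (circles 1 day, squares 1 week, blue saline, purple psilocybin), where a score is the mean over members of log2 CPM relative to each gene's mean over the 12 libraries. Animals S3 and P6 hold the highest ribosomal and respiratory chain scores (1.04 and 0.49, and 0.70 and 0.40), and myelin scores range more widely in saline animals (-0.93 to 0.73) than in psilocybin animals (-0.23 to 0.05).

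No immune gene passed the test either. Of 45 interferon response genes 32 were lower, at a median log2 fold change of -0.016. Without animals S3 and P6, 27 of the 45 were higher, at a median of 0.039. With all 12 animals the median was -0.215 at 1 day and 0.099 at 1 week. Scores ran from -0.46 in animal P6 to 0.54 in animal P5, both killed 1 week after psilocybin, which is wider than the saline range of -0.26 to 0.41. IRF9, a subunit of the interferon-activated ISGF3 complex, spanned 9 to 15.6 CPM after psilocybin and 9.45 to 17.8 CPM after saline (-0.18 ± 0.18, and -0.04 without animals S3 and P6), and it overlaps REC8. Of 15 antigen presentation genes, 12 were lower (median -0.017), as were 12 of 21 microglia markers (median -0.014). Without both libraries 8 of the 15 (median 0.010) and 12 of the 21 (median 0.023) were higher. These medians moved further without animal P5 alone. The interferon median was then -0.168, the antigen presentation median -0.128 and the microglia median -0.119. TREM2, a lipid-sensing receptor of microglia, stood at -0.30 ± 0.19. IL1RAP, the shared accessory chain of interleukin 1 family receptors, ranged from 19.6 over 22.2 to 27.8 CPM after psilocybin and from 22.8 over 26.1 to 29.5 CPM after saline, a log2 fold change of -0.21 ± 0.09 (unadjusted edgeR p of 0.0359, adjusted p of 0.9998). It was the only one of 17 interleukin 1 and 18 pathway genes with an unadjusted p under 0.05. Of 24 cell cycle genes, MCM6, a subunit of the replication helicase (0.21 ± 0.09), and NCAPG2, a condensin subunit (0.37 ± 0.16), had unadjusted p-values under 0.05, both higher, whereas CDCA8, which also serves mitosis, was lower as given above. Over all 35 lists, 9 memberships had an unadjusted p under 0.05, and 0 members passed the test. Over all genes tested 1.53% had such a p, and the share among list members was no higher. The members named were picked as those with the smallest p of their list.

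Each time on its own also gave no call. At 1 day 0 of 15059 genes passed (percent called, 0), 311 had an unadjusted p under 0.05, and at 1 week 0 passed and 318 had one. Intervals were wider there, with a median half-width of 0.388 at 1 day and 0.393 at 1 week. At 1 day the smallest p-values with a higher level belonged to ZNF786, CFAP57 and RAB19. CFAP57, a protein of motile cilia, measured 3.68, 4.30 and 3.62 CPM after psilocybin and 1.44, 1.26 and 1.46 CPM after saline, a log2 fold change of 1.47 ± 0.42. At 1 week it measured 1.54, 1.77 and 4.30 CPM against 1.89, 3.28 and 1.01 CPM, with overlap between the groups. The lower genes at 1 day were HPGD, the main prostaglandin-degrading enzyme (-0.74 ± 0.19), SLC25A21, a mitochondrial carrier (-1.01 ± 0.28), and CYP1A1. CYP1A1, a xenobiotic-metabolising enzyme, was at 0, 0 and 0.0786 CPM in the psilocybin animals and at 1.27, 2.29 and 1.24 CPM in the saline animals. At 1 week its highest value was 1.6 CPM, in psilocybin animal P6, and saline animals S5 and S6 were at 0.

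At 1 week the lower genes with the smallest p were LSG1, BATF2 and ADORA2A. LSG1, a GTPase of ribosome assembly, measured 22.2, 23.3 and 22.1 CPM after psilocybin and 51.0, 31.5 and 36.7 CPM after saline (-0.82 ± 0.24). ADORA2A, an adenosine receptor, measured 0.924, 1.68 and 1.20 CPM against 2.61, 2.64 and 2.67 CPM (-1.04 ± 0.29), and at 1 day 3.10, 2.80 and 2.6 CPM against 1.95, 2.18 and 1.32 CPM (0.64 ± 0.26). The psilocybin animals were thus the lower group at 1 week and the higher group at 1 day. ADORA2A was picked for its small p, and how many of all genes separate in groups of 3 was not counted. The change between times of ADORA2A was -1.68 ± 0.39 on the log2 scale, with an adjusted p of 0.972. BATF2, a transcription factor induced by interferon, stood at -2.72 ± 0.68 and CD48, an immune cell surface protein, at 3.03 ± 0.69 for the same quantity. Across all 15059 genes 0 changed between times at an adjusted p under 0.05 (percent called, 0), and 490 had an unadjusted p under 0.05.

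Of the higher genes at 1 week, SLC25A24, a mitochondrial carrier of ATP and phosphate, measured 14.0, 12.9 and 15.4 CPM after psilocybin and 8.36, 7.84 and 7.74 CPM after saline. The log2 fold change was 0.82 ± 0.19. The other 2, IDO1 and TNMD, divided the psilocybin animals. IDO1, the interferon-inducible enzyme that opens the ring of tryptophan, measured 8.51 and 8.12 CPM in psilocybin animals P4 and P5 and 0 in animal P6, against 0.131, 0.161 and 0.183 CPM in the saline animals. At 1 day IDO1 measured 0.951, 3.44 and 1.33 CPM after psilocybin and 3.56, 5.10 and 1.47 CPM after saline. The saline animals at 1 week were therefore low beside the animals of both treatments at 1 day. TNMD, a membrane glycoprotein of tendon and other dense connective tissue, showed the same order, at 3.90, 3.44 and 0.2 CPM against 0.131, 0.161 and 0.275 CPM.

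When animal P6 was left out, 4 genes passed at 1 week (0.0262% of those tested), and all 4 were higher after psilocybin. They included IDO1 (log2 fold change 5.66 ± 0.69), TNMD (4.26 ± 0.57) and CRABP2, a retinoic acid binding protein (3.79 ± 0.54). The adjusted p-values of the 4 genes lay between 0.0391 and 0.0486 by edgeR. Without animals S3 and P6, a choice made after seeing the data, 14 genes passed at 1 week (0.0923%), 13 higher and 1 lower, and 7 in the change between times (0.0461%). Animal P6 is the psilocybin animal in which the 13 higher genes were nearest to the saline level, so its removal leaves animals P4 and P5 alone against the 3 saline animals.

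The other genes of the 14 that were higher had the same order by animal. POSTN, the matrix protein periostin, measured 15.8 and 11.6 CPM in animals P4 and P5, 2.30 CPM in animal P6 and 2.35, 1.69 and 2.20 CPM in the saline animals, against 4.28 to 12.1 CPM in the 6 animals at 1 day. KRT8, a keratin of simple epithelia, measured 7.48, 10.9 and 0.1 CPM against 0.0653, 0.401 and 0.0916 CPM. SFRP5, a secreted antagonist of WNT signalling, measured 11.3, 14.9 and 0.2 CPM against 0.588, 0.562 and 0.275 CPM. ISLR, MPZL2, CPXM1, C16orf89, ADAMTSL3 and SLC16A9 were also among the higher genes. AIFM2, which protects membranes from lipid peroxidation by reducing coenzyme Q, was the lower one. It measured 16.7 and 19.9 CPM in animals P4 and P5, 34.4 CPM in animal P6 and 32.2 to 36.1 CPM in the saline animals. In batch 1 at 1 week the treatments overlapped for each of the 14 genes. There IDO1 ran from 0.756 to 4.09 CPM after psilocybin and from 0.778 to 2.67 CPM after saline. KRT8 ran from 3.49 to 8.31 CPM against 1.64 to 10.5 CPM.

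**Figure D4:**
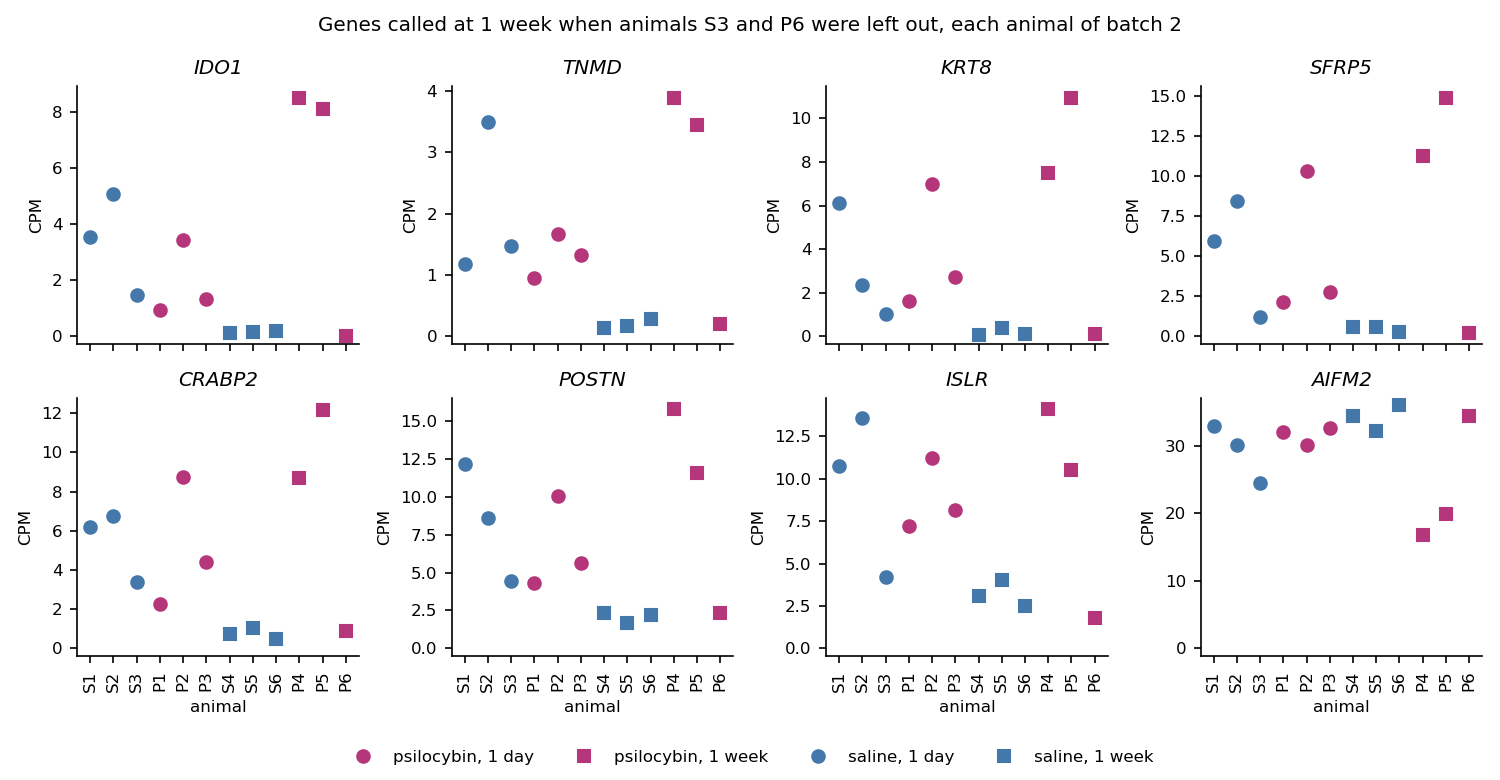
CPM of 8 of the 14 genes called at 1 week without animals S3 and P6, in all 12 animals of batch 2 (circles 1 day, squares 1 week, blue saline, purple psilocybin). IDO1, TNMD, KRT8, SFRP5, CRABP2, POSTN and ISLR are high in animals P4 and P5 and low in animal P6 and in saline animals S4, S5 and S6, and AIFM2 has the opposite order.

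The scores of meningeal and fibroblast markers followed the same order at 1 week. The score of this list was 0.42 and 0.52 in animals P4 and P5, -0.58 in animal P6, and -0.23, -0.42 and -0.39 in saline animals S4, S5 and S6. At 1 day it ran from -0.26 to 0.43 after psilocybin and from -0.21 to 0.53 after saline. Its summed level ran from 779 to 1128 CPM after psilocybin and from 873 to 1054 CPM after saline. Of its 14 tested members 11 were higher at 1 week, at a median log2 fold change of 0.280, and 5 were higher at 1 day, at a median of -0.099. MGP, the matrix Gla protein, measured 10.4, 12.2 and 2.6 CPM after psilocybin and 0.980, 1.44 and 0.921 CPM after saline at 1 week. The part of these markers in the calls at 1 week was not tested.

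The other 11 animals of the series, batch 1, give the same comparison in separate animals. There were 6 psilocybin and 5 saline libraries, 0 of 15187 genes passed (percent called, 0), and 434 had an unadjusted p under 0.05. Over all genes tested in both batches, 60.3% had the same sign in each. Of the 24 leading genes of batch 2, 19 had the same sign in batch 1 and 5 the opposite sign, and 1 had an unadjusted p under 0.05. That gene was ASS1, with a log2 fold change of 0.42 ± 0.15 in batch 1, beside 0.42 ± 0.13 in batch 2. RAB19 stood at 0.38 ± 0.39 and ZNF786 at 0.18 ± 0.16 in batch 1, with the same sign as in batch 2. SOD3 and MSX2 were both at -0.01 in batch 1, with SEs of 0.23 and 0.20. SLC1A2 stood at 0.49 ± 0.29 in batch 1, and 10 of the 15 astrocyte markers were higher there, at a median of 0.066.

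**Figure D5:**
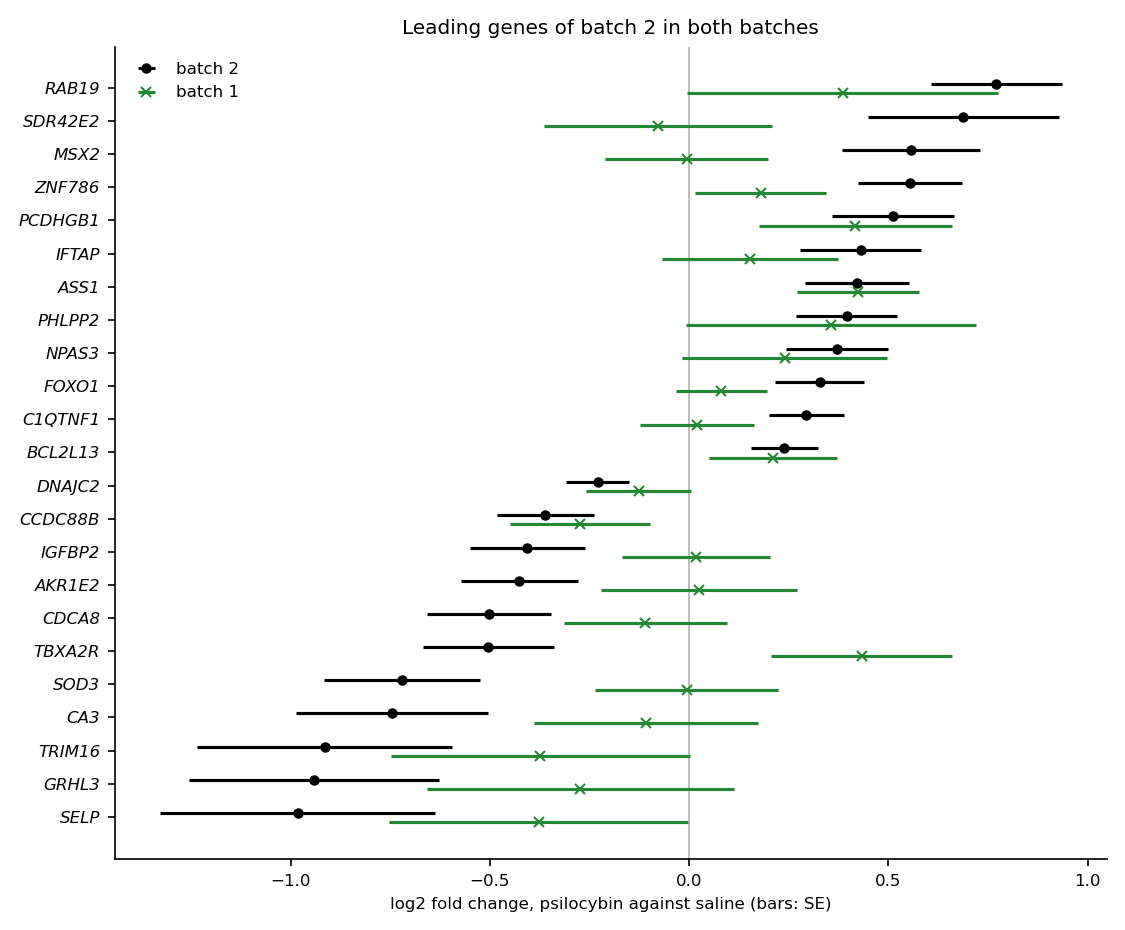
Log2 fold change of psilocybin against saline with its SE for 23 of the 24 leading genes of batch 2, in batch 2 (black circles, 12 animals) and in batch 1 (green crosses, 11 animals). The genes were chosen on batch 2. ASS1 lies at 0.42 in both batches, and TBXA2R lies at -0.50 in batch 2 and 0.43 in batch 1.

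Across the 14923 genes tested in both batches, 60.3% had the same sign, and log2 fold changes had a Pearson correlation of 0.270 and a Spearman correlation of 0.251. These are descriptions across genes, which are not independent replicates, and both batches share the reference annotation and the counting. Of 226 genes with an unadjusted p under 0.05 in batch 2 that were tested in both, 169 (74.8%) had the same sign in batch 1, and 3.98% had an unadjusted p under 0.05 there, beside 2.83% of all genes. That made 9 genes, 7 with the same sign in both batches. With ASS1, these were KIF26B, a kinesin family member, higher in both (0.48 ± 0.21 and 0.55 ± 0.17), AHI1, a ciliary protein of Joubert syndrome (-0.22 ± 0.09 and -0.23 ± 0.10), EBNA1BP2, a nucleolar ribosome assembly factor (-0.19 ± 0.07 and -0.25 ± 0.11), and 3 genes without a symbol. ENSSSCG00000036983, on an unplaced scaffold, showed the widest difference among the 9, -2.54 ± 0.64 in batch 2 and -2.65 ± 0.79 in batch 1. In batch 2 it ranged from 0.2 to 3.53 CPM after psilocybin and from 1.32 to 11.2 CPM after saline, so the groups overlapped. These genes were picked after their values were seen.

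The test of the difference between batches, psilocybin effect in batch 2 minus that in batch 1, called 0 of 15049 genes (percent called, 0), with 151 at an unadjusted p under 0.05. The smallest p-values belonged to genes with opposite signs. TAGAP, a GTPase-activating protein of T cells, had a log2 fold change of -0.32 ± 0.13 in batch 2 and 0.40 ± 0.15 in batch 1, a difference of -0.71 ± 0.20. ZZZ3, a subunit of a histone acetyltransferase complex, had 0.13 ± 0.08 and -0.25 ± 0.09, a difference of 0.39 ± 0.11. TBXA2R from the lower set had -0.50 ± 0.16 and 0.43 ± 0.23, a difference of -0.93 ± 0.26. Animals of the batches also differ in any step tied to the batch, so a difference between them cannot be told apart from one of handling.

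Leaving out animals S3 and P6 narrowed the intervals of the pooled comparison to a median half-width of 0.240. It raised the number of genes with an unadjusted p under 0.05 from 230 to 397 (2.62% of 15176) and called 0 genes (percent called, 0).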

How the data were processed

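The authors' deposited table holds read counts for 25880 Ensembl genes that need not be whole and were treated here like expected counts, although no model estimated them. The submitters' processing notes name fastp 0.20.0 for trimming, STAR 2.6c for alignment on the build susScr11, and featureCounts 1.5.1 as the counter. Counting, per the file headers, took primary alignments with both ends mapped, ignored the strand, and gave a read that overlaps several genes to each in fractions. Overlaps are therefore named above for some genes, but not for all. IFTAP overlaps RAG2, and SLC25A21 overlaps PAX9. SHANK2, GRIN2B, BSN, PDGFRA, HPGD, AKR1E2 and MCM6 each overlap a gene without a symbol. Of 153 tested genes met by the naming rule, 54 overlapped another gene. Of the batch 2 values 71.9% were whole, and rounding to whole counts changed no library total by more than 0.00127%. Symbols were found for 14857 identifiers. HTR1A was not analysed here, and a few genes met by the naming rule are not reported here.

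Genes were kept by filterByExpr (minimum count 10, minimum total 15) and libraries scaled by TMM. The edgeR 4.0.16 quasi-likelihood F test (robust, R 4.3.3) was fitted to the 12 libraries with terms for time and treatment. Genes were called at a Benjamini-Hochberg adjusted p under 0.05, two-sided. The times on their own and their difference came from a model of the 4 groups, batch 1 from its own 11 libraries, and the difference between batches from a model of all 23. SE is the absolute log2 fold change over the square root of F. CPM for list scores used a prior count of 2. The scripts were tested on simulated data.

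The naming rule took the 12 genes with a symbol and the smallest p per direction in the pooled comparison, the 3 per direction at each time, in the change between times and between batches, 14 genes of interest, 3 per list, and genes whose groups did not overlap. Members, 35 gene lists and rules were chosen with earlier results of these data known. The values of single libraries are subject to counting error, so genes under 1 CPM rest on few reads. Alternatives were RLE factors, other filters, DESeq2 1.42.0, limma-voom (limma 3.58.1), a non-robust fit, no time term, 1 model of all 23 libraries, and leaving out each animal. Leaving out animals S3 and P6 together was added after the data were seen.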

Additional observations from a re-analysis of the deposited data

Results flagged for a closer look

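Values are listed here where the highest or lowest of 6 animals of a treatment lay so far from the other 5 that the gap, as a share of the range of the group, exceeded Dixon's critical value. Chance alone gives about 1 such group in 20 where the 6 values come from 1 normal distribution. The groups here mixed both times and held mostly CPM of genes named in the text, so that rate is no reference for the count. Of the 232 groups checked, 28 met the limit, 6 of them through animal S3 and 7 through animal P6. The groups checked share libraries, and no explanation was tested.

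Saline animal S3 was far above the other saline animals in RPL14 (541 CPM), RPS15A (267 CPM) and NDUFB4 (73.1 CPM), and in the scores of cytosolic ribosomal protein genes (1.04), nuclear respiratory chain genes (0.699) and proteasome subunit genes (0.38). Psilocybin animal P6 was above its group in RPL14 (329 CPM), NDUFB4 (57.7 CPM), CYP1A1 (1.6 CPM), the nuclear respiratory chain score (0.396) and the proteasome score (0.276). It was below its group in the scores of endothelial and mural cell markers (-0.556) and of perineuronal net and extracellular matrix genes (-0.12).

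Saline animal S5 stood above its group in ARC (564 CPM), FOS (46.9 CPM) and DUSP5 (14.9 CPM), a phosphatase induced by MAP kinase signalling. Saline animal S2 was high in HTR2C (17 CPM) and SLC17A6 (24.5 CPM). Saline animal S1 was high in PCDHGB1 (4.16 CPM) and low in the microglia score (-0.27).

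Psilocybin animal P1 was high in ZNF786 (21.3 CPM), LXN (22.1 CPM), GADD45B (14.5 CPM) and the presynaptic score (0.169), and low in GNA14 (2 CPM). FOXO1 was high in psilocybin animal P2 (16.5 CPM), IFTAP low in animal P3 (3.78 CPM) and PLLP, a myelin membrane protein, low in animal P5 (142 CPM).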

How the results depend on the processing

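The pooled comparison called 0 genes under all 21 alternatives, with 171 to 410 genes at an unadjusted p under 0.05. The count was also 0 under all 17 alternatives at 1 day (206 to 871 unadjusted), all 3 in batch 1 (at most 549) and all 27 for the difference between batches (129 to 555). At 1 week it ran from 0 to 4 when single animals were left out, 4 being without animal P6, and was 14 without animals S3 and P6, where the change between times had 7. The other alternatives for these 2 comparisons called 0 genes. With animals left out, the cause was not tested.

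Of 84 named genes, 68 kept the sign of their pooled log2 fold change under each alternative run, 16 did not, and 0 were called under any. Without animals S3 and P6 the log2 fold change of BDNF was -0.0801, of NR4A1 -0.038 and of RPS15A 0.0684, and by limma-voom that of IDO1 was -0.00122. Leaving out single animals gave these ranges of log2 fold change: ADORA2A -0.308 to 0.0335, ARC -0.425 to 0.138, BDNF -0.0767 to 0.143, CD48 -0.573 to 0.183, DUSP1 -0.174 to 0.0124, EGR1 -0.223 to 0.0766, FKBP5 -0.127 to 0.0234, FOS -0.242 to 0.184, HTR2C -0.144 to 0.0106, NDUFB4 -0.284 to 0.0133, NR4A1 -0.1 to 0.27, NTRK2 -0.0552 to 0.055, RPL14 -0.386 to 0.17, RPS15A -0.342 to 0.191 and SV2A -0.149 to 0.023. Of 35 list medians, 9 kept their sign under every alternative, and 11 changed it without animals S3 and P6. The mitochondrially encoded difference ran from -1.52 to -0.234 points when single animals were left out, was -0.990 points without the 10 most abundant nuclear genes in the total and -0.385 points without both libraries.

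No paired analysis was possible because the groups share no animal numbers. Depth limits genes under 1 CPM most, where the median interval half-width was 0.797.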
